A study of Mus musculus with 20 samples.

Results

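The alpha, pi and theta glutathione transferases were taken by gene name, as the Gsta, Gstp and Gstt genes of a table of 54532 mouse genes. The 10 members are Gsta1, Gsta2, Gsta3 and Gsta4 of the alpha class, Gstp1, Gstp2 and Gstp3 of the pi class, and Gstt1, Gstt2 and Gstt3 of the theta class. All 10 passed the filter on low counts, as did 15354 genes in all. The table holds 12 genes with such names. The other two are Gstp-ps, a processed pseudogene of the pi class, and Gstt4, which had 0 to 5 counts per library and was not tested.

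Messenger RNA was sequenced from 10 tumors and 10 normal kidneys of C57BL/6 mice of the Cre-less AAV model. All mice were LSL-Cas9/+; Pax8 Cre/+, so Cas9 was made wherever Pax8-driven Cre had removed the stop cassette, which includes renal tubule cells of the tumor and of normal kidney alike. An adeno-associated virus (AAV) carrying sgRNAs for Vhl, Pbrm1, Keap1 and Tsc1 was injected into the kidney, and each tumor and each normal kidney region came from a mouse treated in this way. Normal kidney is therefore not untreated kidney of a mouse without Cas9. The sample labels give neither sex nor age. The comparison asks which genes differ between tumor and normal kidney.

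Glutathione transferases join the thiol of glutathione to electrophiles such as products of lipid peroxidation, drugs and carcinogens, so that these can be exported and excreted as mercapturates. Alpha class enzymes also reduce lipid hydroperoxides, and pi and theta class enzymes act on their own, partly overlapping ranges of substrates. In mouse, several alpha and pi class genes are known targets of Nrf2, the transcription factor that Keap1 marks for degradation. In kidney, alpha class enzymes are abundant in the proximal tubule.

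The libraries held between 14737516 and 26679704 counts, which are given as CPM, counts scaled to a common library size with the TMM factors of edgeR. Of the targeted genes, Vhl (log2 fold change -0.49, adjusted p = 0.0018) and Tsc1 (-0.61, adjusted p = 0.0087) were lower in tumors by edgeR's quasi-likelihood test, Pbrm1 was not called (-0.28, adjusted p = 0.23) and Keap1 was higher (0.83, adjusted p = 1.3e-07). Cas9 cuts alter sequence, so these levels need not fall. Normal kidneys 5, 7 and 8 stood apart from the other 7 normal kidneys. Their summed level of 5 injured tubule markers (Havcr1, Vcam1, Lcn2, Krt20, Sox9) was 2040 to 5086 CPM, against 28.2 to 316 CPM in the other 7 and 264 to 1612 CPM in tumors. Lcn2 (up to 3302 CPM) and Havcr1 (up to 1347 CPM) made up most of the highest sum. Vcam1 was higher in every tumor (69.4 to 137 CPM) than in every normal kidney (12.8 to 35.4 CPM). Krt20 reached 761 CPM in a tumor and 334 CPM in a normal kidney, and Sox9 130 and 96.5 CPM. Neither Krt20 nor Sox9 was called. The summed level of 14 proximal tubule markers in these 3 kidneys was 2651 to 4831 CPM, against 11280 to 17250 CPM in the other 7 and 1392 to 11230 CPM in tumors. Normal kidney 9 had the highest summed level of 4 liver markers (Alb, Apoa1, Ttr, Serpina1a), 1199 CPM, against 28.4 to 267 CPM in the other normal kidneys and 55.3 to 569 CPM in tumors. It was nearly all Ttr (795 CPM) and Serpina1a (388 CPM), and Alb, the marker that best defines liver, was highest in normal kidney 6 (58.7 CPM). Tumor 7 had the lowest summed level of proximal tubule markers of the tumors (1392 CPM) and the highest of injured tubule markers (1612 CPM), stromal markers (7856 CPM, against 126 to 576 CPM in the other 9 tumors), immune markers (1168 CPM, against 259 to 648 CPM) and adipose markers (370.1 CPM, against 5.31 to 161 CPM). Markers of the loop of Henle summed to 3625 to 8979 CPM in normal kidneys and to 0.0431 to 5.89 CPM in tumors, so tumors nearly lacked the markers of that nephron segment. In such bulk tissue, fewer cells of a type and less RNA per cell cannot be told apart.

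Gsta1, Gsta2, Gstp1 and Gstp2 have near-identical copies, which bears on their values because reads that fit more than one copy can be split or dropped in counting. Gsta1, Gsta2 and Gsta4 lie on chromosome 9 with Gm3776 and Gm10639, which are alpha class copies under other names. In mm10 Gsta1 spans chr9:78230656-78242684 and Gsta2 chr9:78331018-78355788, and Gsta4 chr9:78182774-78209349. Gsta3 lies apart on chromosome 1 (chr1:21240589-21265661). The pi class genes form a cluster at chr19:4035407-4037921 (Gstp1), chr19:4040285-4042236 (Gstp2) and chr19:4057477-4059446 (Gstp3), and the theta class genes one on chromosome 10 at chr10:75774115-75781414 (Gstt3), chr10:75783813-75798584 (Gstt1) and chr10:75831114-75837424 (Gstt2). The start and end of 10 of 13 of these genes were the same in GENCODE M21. For the 3 Gstp genes the start was the same and the end was not.

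In the coding sequences of GENCODE M21, Gsta1 and Gm3776 differed at 2 of 669 aligned bases. Gsta1 and Gsta2 were 98.0% identical, and Gsta1 and Gsta3 were 76.1% identical. Gstp1 and Gstp2 differed at 12 of 630 bases and Gstp1 and Gstp-ps at 15 of 628, while Gstp1 and Gstp3 were 73.6% identical. Theta class members were 62.7% to 75.7% identical to each other. Of all stretches of 150 bases in the Gsta1 transcript, 26.3% were found in none of its copies, against 73.2% for Gsta2, 58.2% for Gstp1, 50.6% for Gstp2 and 100% for Gsta3, Gsta4, Gstp3 and the theta class members. Counts of Gsta1, Gsta2, Gstp1 and Gstp2 are thus uncertain where a read fits more than one copy. The transcripts of the other members shared no such stretch with the copies compared. A single transcript per gene was used, and the rest of the genome was not searched.

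The 60 coding bases in which Gstp2 differs most from Gstp1 (coding bases 3 to 62 of Gstp1, spliced and on the coding strand) show how little separates the pi class copies, and capitals mark bases that differ from Gstp1.
Gstp1: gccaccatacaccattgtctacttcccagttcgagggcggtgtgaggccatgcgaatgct
Gstp2: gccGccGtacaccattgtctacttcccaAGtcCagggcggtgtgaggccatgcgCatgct
Gstp-ps: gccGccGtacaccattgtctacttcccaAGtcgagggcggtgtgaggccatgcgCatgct
Gstp3: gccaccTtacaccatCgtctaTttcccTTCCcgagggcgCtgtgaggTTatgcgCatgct
In this stretch Gstp2 differed from Gstp1 at 6 bases, Gstp-ps at 5 and Gstp3 at 11.

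The same is shown for the alpha class with coding bases 449 to 508 of Gsta1, where Gsta2 differs most, and capitals mark bases that differ from Gsta1.
Gsta1: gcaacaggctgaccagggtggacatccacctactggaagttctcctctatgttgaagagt
Gm3776: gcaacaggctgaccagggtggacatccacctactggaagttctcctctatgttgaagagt
Gsta2: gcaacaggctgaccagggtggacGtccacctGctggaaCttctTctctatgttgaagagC
Gm3776 was identical to Gsta1 over these 60 bases, and Gsta2 differed at 5.

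RefSeq promoter windows of GRCm38.p6, 250 bases before to 50 after each gene start, were matched for 8 of 10 members, all but Gsta4 and Gstt2. The antioxidant response element core TGACNNNGC, searched on both strands, was in the window of Gsta3 alone among these members and in 12.4% of all 32851 windows. Sequence outside the windows was not searched, so a window without a match does not show that a gene lacks the element. A different motif, TGANTCAGC, was chosen after the Gstp windows had been read, and its matches there are not matches of the first motif. It was in the windows of Gstp1 and Gstp2 and in no other member's, and in 1.19% of all windows. The HNF1 motif GTTAAT was in the window of Gsta3 and in 7.1% of all windows. The 120 bases upstream of the RefSeq starts of Gstp1 (chr19:4037913-4038032, minus strand) and Gstp2 (chr19:4042222-4042341, minus strand) are shown because both hold TGANTCAGC, in capitals. In GENCODE M21 the genes end at 4037985 (Gstp1) and 4046023 (Gstp2), so those spans hold part of the Gstp1 bases and all of the Gstp2 bases.
Gstp1: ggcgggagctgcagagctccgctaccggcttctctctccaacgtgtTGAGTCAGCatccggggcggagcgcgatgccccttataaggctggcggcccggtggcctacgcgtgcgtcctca
Gstp2: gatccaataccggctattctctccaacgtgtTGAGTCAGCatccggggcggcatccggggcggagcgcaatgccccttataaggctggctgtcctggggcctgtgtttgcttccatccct
The 120 bases upstream of the RefSeq starts of Gsta1 (chr9:78230549-78230668, plus strand), Gm3776 (chr9:78257009-78257128, plus strand) and Gsta2 (chr9:78347146-78347265, minus strand) are shown because the copies share most of them, and capitals mark bases of Gsta2 that are not aligned to the same base of Gsta1. The RefSeq start of Gsta2 lies inside the span that the table gives for the gene, so these bases of Gsta2 lie within that longer span.
Gsta1: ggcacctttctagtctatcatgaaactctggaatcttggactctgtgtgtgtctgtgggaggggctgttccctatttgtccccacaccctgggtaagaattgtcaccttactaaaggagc
Gm3776: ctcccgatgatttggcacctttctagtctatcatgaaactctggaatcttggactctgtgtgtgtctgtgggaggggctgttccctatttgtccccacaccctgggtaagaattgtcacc
Gsta2: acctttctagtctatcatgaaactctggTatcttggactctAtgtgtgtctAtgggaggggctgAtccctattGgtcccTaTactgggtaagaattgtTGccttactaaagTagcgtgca
Gm3776 matched Gsta1 at every aligned base shown, and Gsta2 differed at the 10 bases in capitals. Bases of Gsta1 that are missing from Gsta2 are not marked or counted.

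Tumors carried more RNA of 4 of the 10 members, Gsta1, Gsta2, Gstp1 and Gstp2, and less of Gstt1 and Gstt3, by edgeR's quasi-likelihood test at a Benjamini-Hochberg adjusted p under 0.05 over all genes tested. Of all genes tested 47.5% were called, 23.6% as higher, beside 4 of 10 members, and 23.8% as lower, beside 2 of 10 members. With a log2 fold change beyond 1 and an unadjusted p under 0.001, the limits used in the study, Gsta2 and Gstp1 were higher (8.85% of all genes tested) and Gstt1 and Gstt3 lower (10.2%). The remaining 4 members, Gsta3, Gsta4, Gstp3 and Gstt2, were not called. The median log2 fold change of the 10 members was 0.46, against -0.02 over all genes tested. Gstt3 was the only member whose groups did not overlap, with every tumor below every normal kidney, as were 4.74% of all genes tested, and 0 members had every tumor above every normal kidney, as had 5.87% of all genes tested. Without normal kidneys 5, 7 and 8, 5 members were higher (26.6% of all genes tested in that fit) and 2 were lower (25.5%), and the added member was Gstp3.

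**Figure D1:**
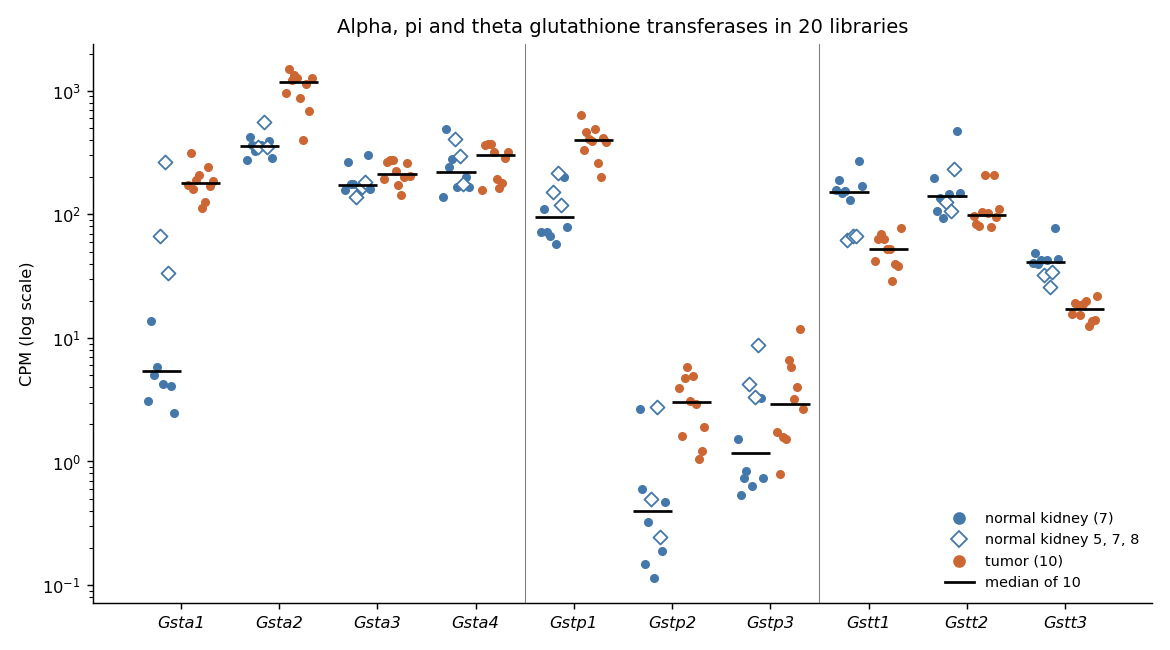
Level of each member in CPM (log axis) in 10 normal kidneys (blue; open diamonds are normal kidneys 5, 7 and 8) and 10 tumors (orange), with black lines at the median of each group. Gsta1 ranges from 2.45 to 266 CPM over normal kidneys and from 112 to 314 CPM over tumors, and the Gstt3 groups do not overlap.

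Among the alpha class, Gsta1, an inducible transferase with peroxidase activity, spanned a wide range in normal kidney. Its lowest, median and highest levels were 2.45, 5.44 and 266 CPM in normal kidneys and 112, 181 and 314 CPM in tumors. The highest normal kidney levels were those of normal kidney 7 (266 CPM), 5 (67.2 CPM) and 8 (33.4 CPM), and the next was 13.7 CPM. Of the normal kidneys, 9 of 10 lay below every tumor and normal kidney 7 lay above 9 of 10 tumors. In the fit Gsta1 rose by 2.21 on the log2 scale (SE 0.749, adjusted p = 0.0192), with the ratio of medians 33.2 against a ratio of means of 4.65. A permutation test of mean log2 CPM gave p = 0.00015 for a difference of 3.99. Without normal kidney 7 alone the log2 fold change was 3.60, and without normal kidneys 5, 7 and 8 it was 5.10. The summed level of injured tubule markers in the 3 kidneys that were high in Gsta1 was the highest of all 20 libraries, mostly from Lcn2, and the part of this in the result was not tested.

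Gsta2, the member with the highest level in both groups, was higher in tumors. Its lowest, median and highest levels were 274, 359 and 559 CPM in normal kidneys and 401, 1172 and 1491 CPM in tumors. All tumors but tumor 7 (401 CPM) lay above every normal kidney, and 8 of 10 normal kidneys lay below every tumor. This was a rise of 1.52 on the log2 scale (SE 0.195, adjusted p = 1.6e-06). Tumor 7 was also the tumor with the lowest summed proximal tubule markers and the highest summed stromal, immune and adipose markers, and their part in its value was not tested.

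Gsta3 and Gsta4, which acts on 4-hydroxynonenal, a product of lipid peroxidation, did not pass the test. Gsta3 lay at 139, 172 and 303 CPM (lowest, median, highest) in normal kidneys and at 144, 214 and 276 CPM in tumors. Its log2 fold change was 0.24 (95% interval -0.07 to 0.54, adjusted p = 0.22). Gsta3 was highest in normal kidney 9 and lowest among tumors in tumor 7, and without these 2 libraries its log2 fold change was 0.37 (adjusted p = 0.0155). Gsta4 lay at 139, 221 and 488 CPM in normal kidneys and at 159, 303 and 369.9 CPM in tumors, with the groups overlapping over most of their range. Its log2 fold change was 0.09 (95% interval -0.38 to 0.56, adjusted p = 0.78), and it was slightly below 0 with upper quartile factors or library totals.

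The copies outside the name rule were also higher in tumors. Gm3776 was 0.283 to 50.6 CPM in normal kidneys and 27.8 to 87.9 CPM in tumors, a rise of 2.54 on the log2 scale (adjusted p = 0.0115), and its highest normal kidney levels were in the same 3 kidneys, 7, 5 and 8. Gm10639 rose by 1.61 on the log2 scale (adjusted p = 0.00069). Counts of Gsta1, Gm3776 and Gm10639 summed to 1 row gave 2.18 (adjusted p = 0.0063), and those of Gsta1 and Gsta2 summed gave 1.61 (adjusted p = 3.0e-06).

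In the pi class, Gstp1, which conjugates a broad range of electrophiles, held nearly all of the RNA. Its lowest, median and highest levels were 57.2, 95.2 and 216 CPM in normal kidneys and 199.6, 401 and 633 CPM in tumors. All tumors but tumor 8 (199.6 CPM) lay above every normal kidney. The overlap came from normal kidneys 7 (216 CPM) and 9 (202 CPM). Gstp1 rose by 1.80 on the log2 scale (SE 0.259, adjusted p = 7.5e-06), and by 2.08 without normal kidneys 5, 7 and 8. With the counts of Gstp1, Gstp2, Gstp3 and Gstp-ps summed, the rise was 1.80 (adjusted p = 7.3e-06), a value that does not depend on how reads were split among these copies, although reads dropped as ambiguous would be missing from it.

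Gstp2, the neighbouring copy, had far fewer counts than Gstp1. It was 0.115, 0.396 and 2.74 CPM (lowest, median, highest) in normal kidneys and 1.05, 3.00 and 5.77 CPM in tumors, from 2 to 75 counts per normal library and 19 to 134 per tumor library. Normal kidneys 7 (2.74 CPM) and 1 (2.66 CPM) were within the tumor range, and the other 8 lay below every tumor. It rose by 1.94 on the log2 scale (SE 0.546, adjusted p = 0.00597).

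Gstp3, the least similar copy, was not called. It was 0.539, 1.18 and 8.74 CPM in normal kidneys and 0.798, 2.92 and 11.7 CPM in tumors, with a log2 fold change of 0.68 (95% interval -0.38 to 1.75, adjusted p = 0.31). Normal kidneys 8, 5 and 7 had the highest normal levels, 8.74, 4.26 and 3.32 CPM, and without them the log2 fold change was 1.76. Gstp-ps, the pseudogene on chromosome 1 (chr1:192073820-192074450), was 7.42 to 27.5 CPM in normal kidneys and 26.1 to 75.5 CPM in tumors, a rise of 1.93 on the log2 scale (adjusted p = 3.1e-06).

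Gstt1 and Gstt3 of the theta class were lower in tumors. Gstt1, which acts on small halogenated compounds, lay at 61.7, 152 and 271 CPM in normal kidneys and at 28.8, 52.6 and 77.1 CPM in tumors. Of the normal kidneys, 7 of 10 lay above every tumor, and the 3 that did not were normal kidneys 5, 7 and 8, at 61.7 to 67.3 CPM. Its log2 fold change was -1.43 (SE 0.251, adjusted p = 8.2e-05), and -1.73 without these 3.

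Gstt3, its neighbour on chromosome 10, lay at 25.6, 41.35 and 78.2 CPM in normal kidneys and at 12.55, 17.0 and 21.85 CPM in tumors, with no overlap. Its log2 fold change was -1.34 (SE 0.162, adjusted p = 7.5e-07). The 3 lowest normal kidneys were again 5, 7 and 8 (25.6 to 34.0 CPM), and without them the value was -1.50.

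Gstt2, which also has peroxidase activity, was not called. It was 94.2, 139.9 and 475 CPM in normal kidneys and 78.5, 99.3 and 209 CPM in tumors. Its log2 fold change was -0.60 (95% interval -1.15 to -0.05, adjusted p = 0.0853), where the interval is not adjusted for the number of genes. The highest level was in normal kidney 9 (475 CPM), which also had the highest CPM of Gsta3, Gstt1 and Gstt3. Its TMM factor was the lowest of the normal kidneys (0.749, against 1.03 to 1.14), which raises its CPM, and it had the fewest genes detected (19996). Among normal kidneys it had the highest summed markers of liver, loop of Henle (8979 CPM) and collecting duct (1212 CPM) and the lowest of podocytes (117 CPM). Without normal kidney 9 the log2 fold change of Gstt2 was -0.31 (adjusted p = 0.238). The part of these features in the values was not tested.

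**Figure D2:**
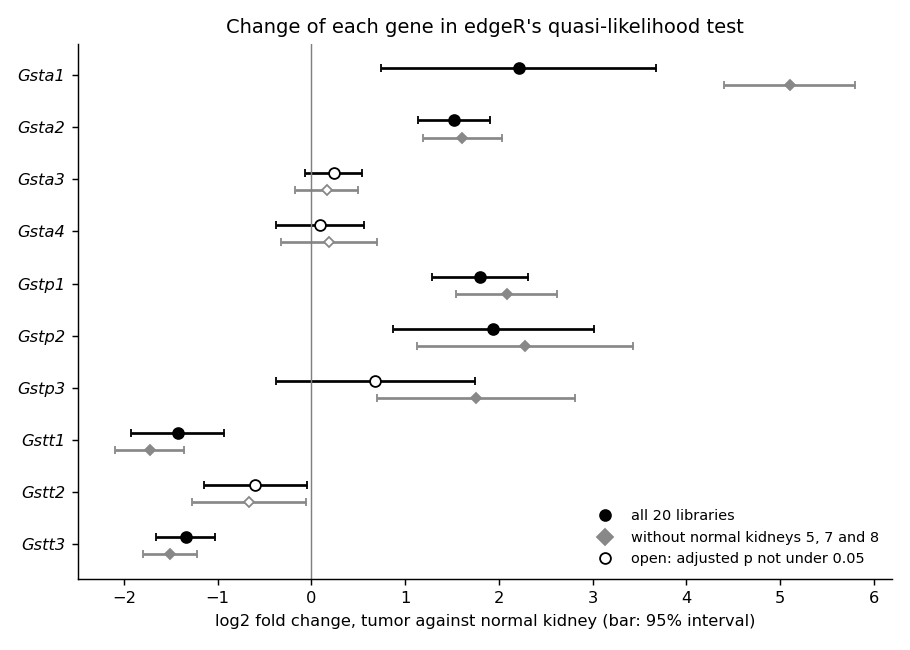
Log2 fold change of each member, tumor against normal kidney, with its 95% interval, in all 20 libraries (black) and without normal kidneys 5, 7 and 8 (gray). Filled symbols have an adjusted p under 0.05, and the 3 kidneys were picked after the data were seen. Gsta1 moves from 2.21 to 5.10 and Gstp3 from 0.68 to 1.76 without the 3 kidneys, and the other members keep their call.

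The plot of Gsta1, Gstt1 and Gstp1 beside the injured tubule markers sets the same libraries side by side. Gsta1 was 33.4 to 266 CPM in normal kidneys 5, 7 and 8 and 2.45 to 13.7 CPM in the other 7. Gstt1 was 61.7 to 67.3 CPM in these 3 and 130 to 271 CPM in the other 7. Gstp1 was 120 to 216 CPM in these 3 and 57.2 to 202 CPM in the other 7. Among the members not plotted, the ranges of the 3 and the other 7 overlapped for Gsta2, Gsta3, Gsta4, Gstp2 and Gstt2. They did not overlap for Gstp3 and Gstt3. These libraries were not compared by a test, because they were set apart by measured levels.

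**Figure D3:**
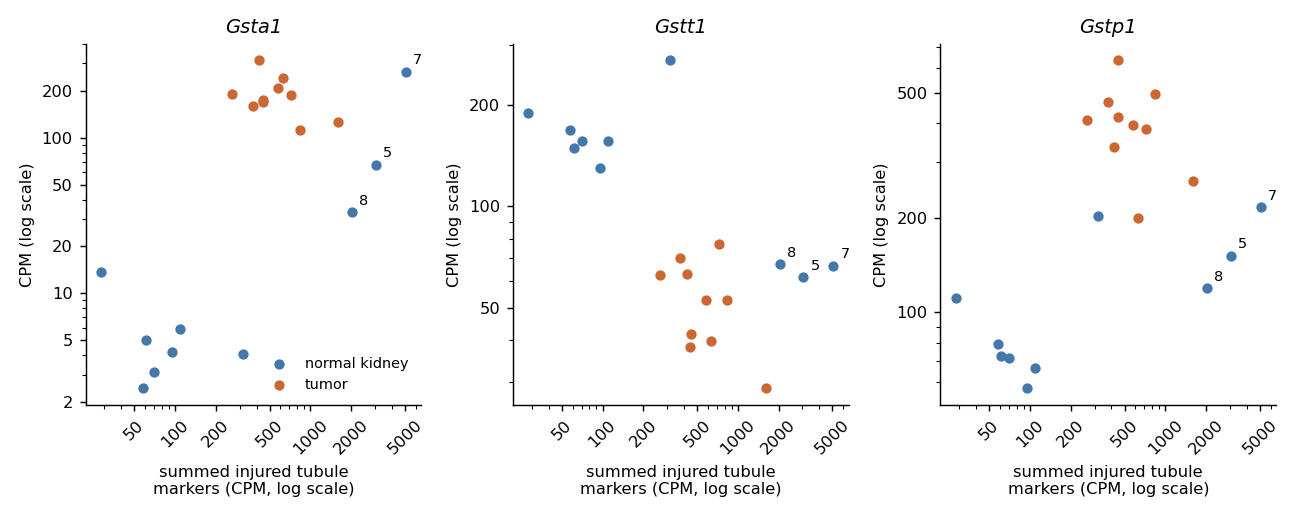
Levels of Gsta1, Gstt1 and Gstp1 in CPM against the summed level of 5 injured tubule markers in CPM (both axes log), with 10 normal kidneys in blue and 10 tumors in orange, and normal kidneys 5, 7 and 8 numbered. These 3 kidneys lie at a summed 2040 to 5086 CPM of the markers, above all tumors, and are within the tumor range for Gstt1.

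To compare genes with each other, levels were divided by the deposited gene length. In normal kidney the order was Gsta2 (314 ± 68.5 CPM per kilobase, SD, n = 10), Gsta4 (202 ± 90.7), Gstp1 (152 ± 76.1), Gstt1 (92.6 ± 42.4), Gsta3 (43.3 ± 12.3), Gstt2 (42.5 ± 27.3), Gsta1 (42.4 ± 85.7), Gstt3 (11.2 ± 3.67), Gstp3 (3.47 ± 3.66) and Gstp2 (1.04 ± 1.32). Neighbours in this order differed by less than the larger SD of the pair for Gsta4 and Gstp1, Gstp1 and Gstt1, Gsta3 and Gstt2, Gstt2 and Gsta1, Gsta1 and Gstt3, and Gstp3 and Gstp2. In tumors the order was Gsta2 (903 ± 282), Gstp1 (528 ± 160.0), Gsta4 (215 ± 70.4), Gsta1 (197 ± 60.5), Gsta3 (51.1 ± 10.6), Gstt1 (34.4 ± 10.1), Gstt2 (28.1 ± 11.9), Gstp3 (5.58 ± 4.69), Gstt3 (4.40 ± 0.807) and Gstp2 (4.04 ± 2.18). Here the pairs that differed by less than the larger SD were Gsta4 and Gsta1, Gstt1 and Gstt2, Gstp3 and Gstt3, and Gstt3 and Gstp2. Deposited lengths of Gsta3 (4344 bases), Gstt2 (4156 bases) and Gstt3 (3842 bases) far exceed their longest coding transcripts (1457, 2254 and 1880 bases), so their places in the order depend on the length used.

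The summed level of the 10 members was 905 ± 253 CPM per kilobase in normal kidneys and 1971 ± 421 in tumors. The alpha class took up 66.3% ± 7.72 of this sum in normal kidneys and 68.6% ± 8.22 in tumors, with the groups overlapping. The pi class share was 16.6% ± 4.66 and 28.0% ± 8.41, and the theta class share 17.1% ± 7.05 and 3.45% ± 0.636. The theta class shares did not overlap, at 5.41% or more in normal kidneys and 4.56% or less in tumors. On plain counts, not divided by length, they overlapped slightly (27.4% ± 9.51 and 8.14% ± 1.99, lowest normal kidney 11.6%, highest tumor 11.8%). Within the pi class Gstp1 held 97.2% ± 2.12 of the level in normal kidneys and 98.1% ± 0.814 in tumors.

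**Figure D4:**
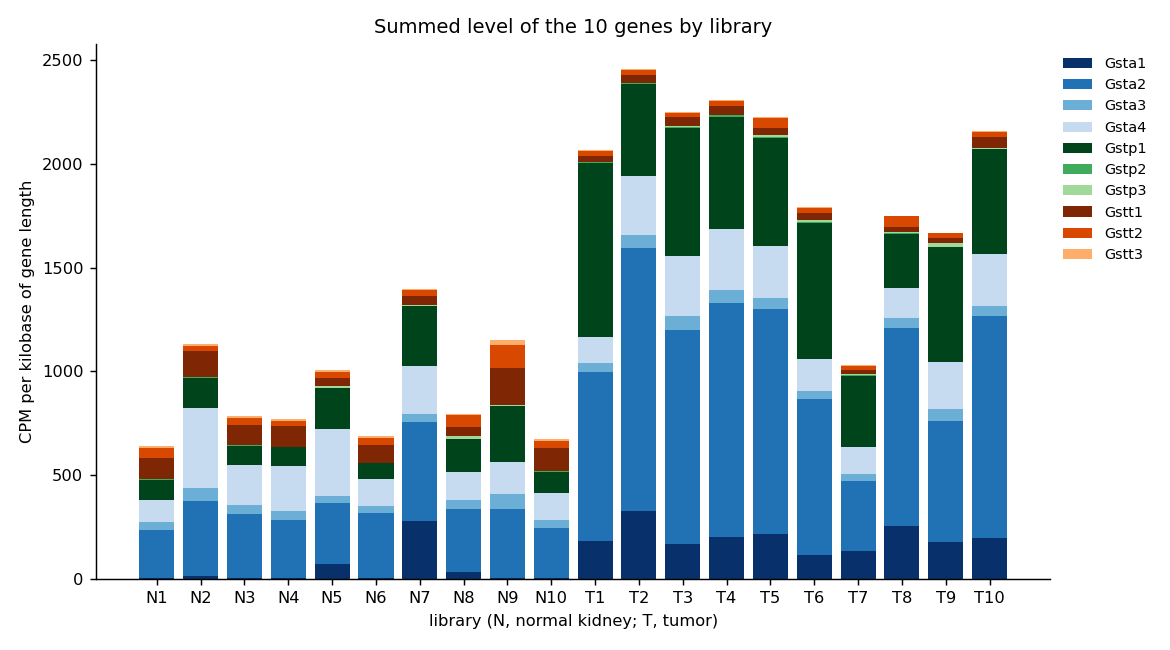
Summed level of the 10 members in CPM per kilobase of gene length for each normal kidney (N1 to N10) and tumor (T1 to T10), stacked by gene. Normal kidneys sum to 643 to 1397 and tumors to 1029 to 2456, and Gsta2 and Gstp1 make up most of the tumor bars.

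Across libraries of 1 group, some near-identical copies followed each other closely and others did not, which is a description since they can share reads. The correlation of log2 CPM between Gsta1 and Gm3776 was 0.97 over 10 normal kidneys and 0.93 over 10 tumors. For Gstp1 and Gstp-ps it was 0.955 and 0.937. It was lower for Gsta1 and Gsta2 (0.712 and 0.668), Gstp1 and Gstp2 (0.284 and 0.611) and Gstp2 and Gstp-ps (0.286 and 0.634). Gstt1 and Gstt3, which share no stretch of 150 bases, correlated at 0.888 and 0.85. No p is given for these, since the libraries also share depth and tissue makeup.

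**Figure D5:**
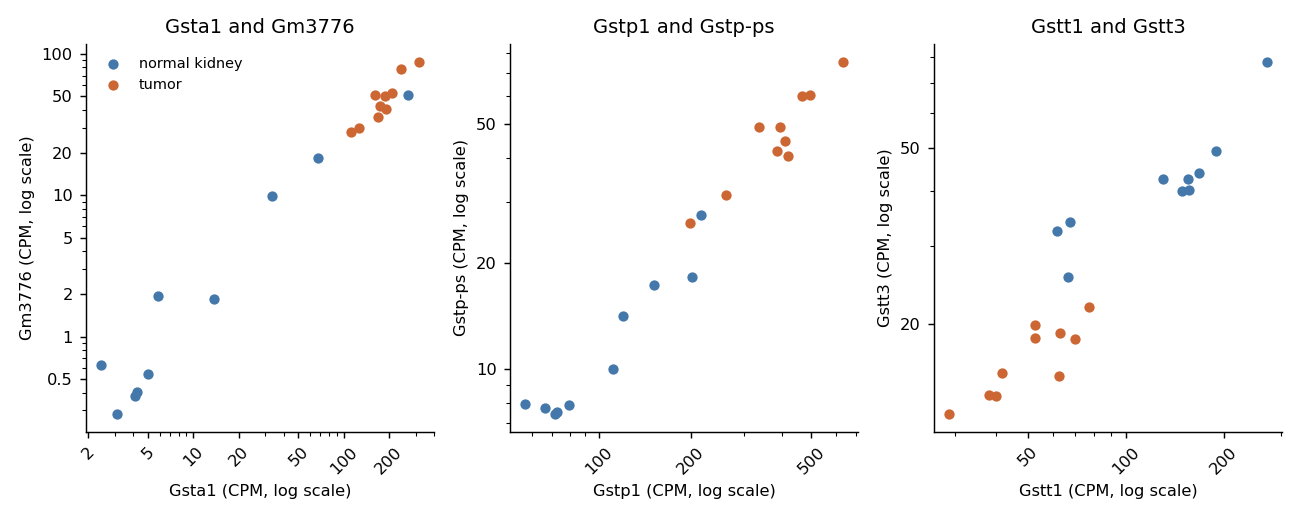
Level in CPM (log axes) of Gsta1 against Gm3776, Gstp1 against Gstp-ps and Gstt1 against Gstt3 in 10 normal kidneys (blue) and 10 tumors (orange). Levels rise together in each panel, and in the last one normal kidneys 5, 7 and 8, at 61.7 to 67.3 CPM of Gstt1, lie above all tumors in Gstt3 (25.6 to 34.0 CPM against at most 21.85 CPM).

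Genes with the most similar pattern were ranked by the correlation of log2 CPM after removal of each group's mean, over 20 libraries. Gstt2 was followed by Ech1 (r = 0.951), Decr1 (0.938) and Eci1 (0.928), enzymes of fatty acid oxidation. Gstt1 was followed by Isoc2a (0.955), Ccdc181 (0.949) and Arl3 (0.945), Gsta1 by Vat1 (0.929), Pgd (0.922), an enzyme of the pentose phosphate pathway, and Slc20a2 (0.915), and Gsta4 by Msmo1 (0.726) and Fdft1 (0.699), enzymes of cholesterol synthesis, and Cbr3 (0.689). Gsta2 was followed by Entpd5 (0.867), Elovl7 (0.858) and Tm6sf2 (0.858), and Gsta3 by Fbxo8 (0.776), Ggh (0.77) and Ppil3 (0.767). Gstp1 was followed by Sars (0.817), Rrp7a (0.81) and Esd (0.803), and Gstp2 by Snx9 (0.75), Rbms2 (0.701) and Lamb3 (0.692). The leading genes were Il34 (0.854), Lrg1 (0.849) and Tbrg1 (0.839) for Gstp3 and 1190007I07Rik (0.924), Tmem38a (0.917) and Apoo (0.916) for Gstt3. For Gsta1, 96.4% of the squared deviations came from the normal kidneys, which include normal kidneys 5, 7 and 8. Without tumor 7 and normal kidney 9, 0 or 1 of the 3 leading genes of each member stayed among the first 3. The ranking thus rests in part on these libraries, while Ech1 stayed first for Gstt2 and Snx9 for Gstp2.

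The other glutathione genes moved in both directions. Of 15 other cytosolic and microsomal transferases, 7 rose, 4 fell and 4 were not called in tumors. Over all genes tested, 23.6% rose and 23.8% fell. Gstm3, of the mu class, was at 0 to 2.53 CPM in normal kidneys and 26.0 to 332 CPM in tumors (log2 fold change 8.88, adjusted p = 2.5e-09), and Hpgds, which makes prostaglandin D2 and belongs to the sigma class, rose by 3.90 on the log2 scale. Gstk1, the mitochondrial and peroxisomal kappa class enzyme, fell by 3.02 on the log2 scale and Gstz1, which acts in tyrosine breakdown, by 1.54. Gstm5, Gsto2, Mgst1 and Mgst3 were not called, at -0.64 to 0.23. With normal kidneys 5, 7 and 8 left out, 8 of 15 rose and 5 fell, beside 26.6% and 25.5% of all genes tested.

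Of 8 genes of glutathione synthesis and reduction, 2 rose, 1 fell and 5 were not called. The shares of all genes tested were 23.6% higher and 23.8% lower. Slc7a11, the cystine importer, was 0.180 to 30.1 CPM in normal kidneys and 62.6 to 381 CPM in tumors (log2 fold change 5.02, adjusted p = 6.2e-05), and Gss, glutathione synthetase, rose by 1.12 on the log2 scale. Ggct, which breaks down gamma-glutamyl peptides, fell by 2.26. Gclc, Gclm, Gsr, Chac1 and Chac2 were not called, with log2 fold changes of -0.06 to 0.69. Without normal kidneys 5, 7 and 8, 5 of 8 rose and 1 fell, beside 26.6% and 25.5% of all genes tested.

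Of 12 genes of conjugate export and mercapturate formation, 6 rose, 3 fell and 3 were not called. Among all genes tested 23.6% rose and 23.8% fell. Anpep, an aminopeptidase of the brush border, rose by 2.87 on the log2 scale and Abcc3, an exporter of conjugates, by 1.94. Kyat3 fell by 2.77 and Acy3, which removes acetyl groups from mercapturates, by 2.50. Ggt1, Dpep1 and Nat8 were not called, with log2 fold changes of 0.43, -0.56 and 0.96.

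Of 11 genes listed as Nrf2, its inhibitor Keap1 and reporters of Nrf2 activity, 8 rose, 1 fell and 2 were not called. Keap1, which is not a reporter, was among the 8. Over all genes tested 23.6% were higher and 23.8% lower. Nqo1, a quinone reductase, was 62.5 to 263 CPM in normal kidneys and 226 to 519 CPM in tumors (log2 fold change 1.53, adjusted p = 4.9e-05). Nfe2l2, which encodes Nrf2, fell by 0.79 on the log2 scale. Hmox1 and Gclm were not called, with log2 fold changes of 0.80 and 0.24. Without normal kidneys 5, 7 and 8, 10 of 11 rose and Nfe2l2 was the 1 that fell. In that fit 26.6% of all genes tested rose and 25.5% fell.

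The marker lists were compared in the same fit, in which 23.6% of all genes tested rose and 23.8% fell. In tumors 6 of 13 proximal tubule markers fell and 7 were not called, all 4 loop of Henle, 3 distal convoluted tubule and 6 collecting duct markers fell, and 3 of 4 podocyte markers fell. Of 5 immune markers 4 rose, of 5 endothelial markers 1 rose, and none of 5 stromal, 3 adipose and 1 adrenal markers was called. Of 5 injured tubule markers 1 rose and 1 fell, and of 4 liver markers 1 rose (Apoa1) and 2 fell. With normal kidneys 5, 7 and 8 left out, 4 of 5 injured tubule markers rose and 0 fell. These kidneys were set apart by the sum of those markers, so this count follows in part from the choice. In that fit 8 of 14 proximal tubule markers fell and 2 of 5 stromal markers rose. Over all genes tested in it, 26.6% rose and 25.5% fell. How much of each member's change goes with this change in tissue makeup was not tested.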

How the data were processed

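Frozen tumor and normal kidney tissue was pulverized, RNA was extracted with Trizol, and poly A enriched libraries were made and sequenced as read pairs of 150 bases. The authors deposited raw counts per gene, with gene lengths, on mm10. The aligner, the counter and the use of strand are not given in the sources used here, so overlapping genes and near-identical copies carry uncertain counts. Groups come from the sample labels. The gene members, lists and alternatives were chosen with earlier results of these data known.

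Counts were normalized with TMM factors of edgeR 4.0.16 (R 4.3.3) and filtered at a count minimum of 10. The 2 groups entered 1 quasi-likelihood fit (edgeR) over 15354 genes with no covariate, and p-values received Benjamini-Hochberg adjustment. Permutation tests were two-sided with 100000 resamples. Levels are CPM, or log2 CPM with a prior count of 2, and CPM per kilobase of deposited length between genes. Coding sequences of GENCODE M21 were aligned with Biopython. Named genes are the members, Gstp-ps, Gstt4, the 2 largest rises and falls of each list, members not called where a count is 5 or fewer, the 3 most similar genes, and the markers. Gm3776 and Gm10639 were added after their sequences and values were seen. Alternatives were other normalizations, no filter, DESeq2 1.42.0, limma-voom 3.58.1, a gene length offset, a replicate block, leaving out each library, summed copies and, chosen after seeing the data, leaving out normal kidneys 5, 7 and 8. The fit was tested on simulated data first. Total counts of 14737516 to 26679704 per library set the precision.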

Additional observations from a re-analysis of the deposited data

How the results depend on the processing

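The 6 called members kept their direction and their call under all alternatives run on the adjusted p, although by log2 fold change beyond 1 and unadjusted p under 0.001 the members higher in tumors numbered 2 (Gsta1 and Gstp2 missed the p) and all genes 1359 higher and 1571 lower, against 3631 and 3661. Over the 20 fits that left out 1 library, genes higher ranged from 3420 to 4052, genes lower from 3474 to 4201, members higher from 4 to 5 and members lower from 2 to 3. Gsta4 was -0.0314 with upper quartile factors and -0.0615 with library totals. Of the members not called, Gsta3 passed without normal kidney 9 (0.33, adjusted p = 0.0442) and with quality weights (0.34, adjusted p = 0.0154), Gstp3 with quality weights (1.35, adjusted p = 0.00544), and Gstt2 with upper quartile factors (-0.72, adjusted p = 0.0346), library totals (-0.66, adjusted p = 0.0226) or quality weights (-0.38, adjusted p = 0.0456), without tumor 5 (-0.73, adjusted p = 0.0377) or without tumor 8 (-0.74, adjusted p = 0.0377), and the cause was not tested. Upper quartile factors and library totals moved the median of all genes to -0.14, and the share of calls that were higher, 49.8%, was 39.2% and 38.5% with them and 59.8% with a gene length offset. Tumors and normal kidneys share the numbers 1 to 10, and the paper took both from a cohort of 10 mice. Correlations of same-numbered deviations were -0.143 to 0.377, with 9 of 10 over 0.1 and 8 of 10 tumors nearest their own number. This is a hint from the data that numbers mark mice. The labels do not tie a number to a mouse, so the main fit had no block. It and the permutation tests thus treated the 20 libraries as independent, although the groups drew on the same cohort. With the replicate block 3979 genes were higher and 3886 lower, 4 members were higher and 2 lower, and Gsta1 was 4.24. With the block and the length offset 5018 genes were higher and 3413 lower (59.5% of calls higher), and 6 members were higher, Gsta3 (0.34, adjusted p = 0.0456) and Gstp3 (1.07, adjusted p = 0.0419) being added. Depth limits Gstp2 and Gstp3, which had as few as 2 and 9 counts in a normal kidney.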
